A study of Mus musculus with 12 samples.

Results

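The Hox cluster genes on the array were followed in mammary tumours of 6 mouse strains. A gene counted as a member when a gene probe on the array carried a Hox cluster name, and each gene was read from its brightest probe by mean intensity over all arrays. This gave 38 genes of 29742 gene names on the array, read by 49 probes: 11 genes of the HoxA cluster, 10 of HoxB, 8 of HoxC and 9 of HoxD. The mouse annotation holds 39 such genes. All 38 members passed the filter on signal, as did 29498 gene names in all. The rule uses gene names and signal brightness, and the group was picked with earlier results of these data known.

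In all 6 strains the MMTV promoter drives an activated form of neu, the rat ErbB2 receptor gene. That promoter is active mainly in mammary epithelium and to some degree in other epithelia such as salivary gland. The parental strain is MMTV/neu NDL2-5, written NDL25. NYPD tumours carry a receptor without the tyrosine autophosphorylation sites of its tail, and YB, YC, YD and YE each have 1 of these sites restored on that receptor; as background, the YB site binds the adaptor Grb2 and the YD site binds the adaptor Shc. The mice were female and tumour-bearing for 6 weeks, and no source used here gives their age. Each strain gave 10 tumours, pooled by 5, so single tumours were not measured. The 12 pools were each hybridised on a pair of dye-swapped arrays, 24 in all, with Universal Mouse Reference RNA (pooled cell line RNA) in the other channel. The labels do not say which dye held the tumour RNA, so it was read from mammary genes: Csn2 and Lalba lay on the tumour side and Afp on the reference side on all 24 arrays. A value below is the log2 ratio of tumour over reference RNA in a pool, where 0 means an equal signal and each unit is a doubling. The spread between 2 pools of different tumours is the error behind every test.

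As background, Hox genes encode homeodomain transcription factors that set position along the body axis, and their order along each cluster follows the order in which they are switched on from head to tail. Low paralogue numbers are expressed toward the head and high ones toward the tail. Hox proteins bind DNA together with homeodomain cofactors of the TALE class, the Pbx, Meis and Pknox (Prep) proteins. In the mammary gland Hoxa9, Hoxb9 and Hoxd9 act in the epithelium's growth at pregnancy, Hoxc6 and Hoxc8 take part in placing and shaping the gland, and Hoxa5 and Hoxb7 are studied in breast cancer. The mesenchyme of the jaws and the oral cavity forms without Hox expression.

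The arrays gave a median tumour signal of 364.8 to 763.5 intensity units, and 97.28% to 98.86% of the gene spots were well above background. Of the members, 36 were well above background on all 24 arrays in the tumour channel; Hoxc12 was so on 19 and Hoxd10 on 22. The median tumour signal of 6 members (Hoxb1, Hoxc8, Hoxc12, Hoxc13, Hoxd1 and Hoxd10) lay under 2 times the 95th percentile of the negative control spots. The offset of 50 added to every signal draws the ratios of such dim probes toward 0. No member had a saturated or an excluded spot. Probe sequences were not used here, so reading of one paralogue by another's probe was not checked. Across the 456 pairs of arrays of a member and a pool, the 2 dye orientations differed by a median of 0.16 on the log2 scale and by at most 0.90. Mammary epithelial markers stood above the reference: the mean log2 ratio over 19 luminal and milk genes was 1.75 to 2.56 in the 12 pools, with Epcam, Elf5, Krt8 and Csn2 above 0 in every pool. The median ratio of these same genes set which dye was read as tumour. Their lying above the reference as a set was therefore fixed by that step. By the day of image extraction given in the file headers, the arrays fell in 3 sessions, with NYPD alone in the last one. Session and strain therefore cannot be told apart in a comparison with NYPD. The days of hybridisation and scanning were not used here. The NDL25 and YB pools lay wholly in 1 such session and the YD and YE pools wholly in another, with YC in both. With session as a block, 0 members passed for YB, YC, YD or YE against NDL25, as without it; for YD and YE that block rests on 1 array of YC pool 2, so strain and session are barely separable there.

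The promoters shown are those of Hoxd3 and Hoxd9, which passed a test in opposite directions, and of Hoxb1, Hoxb8 and Hoxd11. In the latter 3, as in Hoxd3, the 2 YB pools were the 2 highest of 12 on the brightest probe. These last 3 genes passed no test, and Hoxc6, the third member that passed, is named only. Each sequence is a RefSeq window of build GRCm38.p6 from 250 bases before to 50 bases after the gene start, read 5′ to 3′. RefSeq windows matched 22 members, 2 of them with 2 windows each, and Hoxd11 is shown by the window that holds a motif. Capitals mark TGATNNAT, the sequence bound by Pbx and Hox proteins together, found on either strand; TGACAG, the Meis sequence, was searched the same way and no shown window holds it.
Hoxd3 (chr2:74711743-74712042, plus strand): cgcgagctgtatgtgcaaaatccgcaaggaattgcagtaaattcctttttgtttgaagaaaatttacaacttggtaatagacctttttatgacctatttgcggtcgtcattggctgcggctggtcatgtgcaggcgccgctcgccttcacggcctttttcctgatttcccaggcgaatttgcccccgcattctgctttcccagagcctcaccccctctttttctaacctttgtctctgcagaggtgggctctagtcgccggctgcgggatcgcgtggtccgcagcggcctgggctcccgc
Hoxd9 (chr2:74697513-74697812, plus strand): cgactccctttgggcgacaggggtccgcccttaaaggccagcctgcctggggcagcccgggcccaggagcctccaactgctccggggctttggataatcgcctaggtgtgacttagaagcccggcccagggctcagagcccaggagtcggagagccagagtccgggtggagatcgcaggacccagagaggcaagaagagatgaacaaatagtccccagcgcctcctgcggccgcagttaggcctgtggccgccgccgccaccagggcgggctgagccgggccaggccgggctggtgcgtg
Hoxd11 (chr2:74682073-74682372, plus strand): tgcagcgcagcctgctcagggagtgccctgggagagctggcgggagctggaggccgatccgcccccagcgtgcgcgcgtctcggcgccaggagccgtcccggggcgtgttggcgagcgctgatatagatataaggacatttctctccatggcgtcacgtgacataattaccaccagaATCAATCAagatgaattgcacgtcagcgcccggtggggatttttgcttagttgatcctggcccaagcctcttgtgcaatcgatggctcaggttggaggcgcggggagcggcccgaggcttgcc
Hoxb1 (chr11:96365508-96365807, plus strand): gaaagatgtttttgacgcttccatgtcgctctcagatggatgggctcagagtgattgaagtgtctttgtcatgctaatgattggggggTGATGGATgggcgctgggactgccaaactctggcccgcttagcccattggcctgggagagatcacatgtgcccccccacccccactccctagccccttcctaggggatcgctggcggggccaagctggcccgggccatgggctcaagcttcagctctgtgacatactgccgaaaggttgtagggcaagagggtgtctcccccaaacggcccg
Hoxb8 (chr11:96281655-96281954, plus strand): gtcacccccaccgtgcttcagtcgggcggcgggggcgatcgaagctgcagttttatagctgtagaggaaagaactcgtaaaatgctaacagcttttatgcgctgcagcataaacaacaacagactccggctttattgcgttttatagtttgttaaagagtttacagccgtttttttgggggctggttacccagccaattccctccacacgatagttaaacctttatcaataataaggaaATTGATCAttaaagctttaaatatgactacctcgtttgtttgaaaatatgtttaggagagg
The Pbx-Hox motif TGATNNAT was found in 4 of 24 member windows (16.7%), those of Hoxa2, Hoxb1, Hoxb8 and Hoxd11, and in 8.85% of all 32851 windows. In Hoxb1 it begins 162 bases before the gene start as TGATGGAT, in Hoxd11 73 bases before it as ATCAATCA, and in Hoxb8 11 bases before it as ATTGATCA. The Meis motif TGACAG was found in 2 member windows (8.33%), those of Hoxa2 and Hoxa3, against 19.2% of all windows, and did not overlap the other motif in any member window. A match describes these letters in this window and does not show a bound site.

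Measured against the reference, most Hox genes were either far below it or close to it in every pool. In 12 of 38 members every pool lay under -0.5, against 5.89% of all genes tested: Hoxa7, Hoxa9, Hoxa10, Hoxa11, Hoxc6, Hoxc8, Hoxc9, Hoxc10, Hoxc13, Hoxd4, Hoxd8 and Hoxd9. The dimmer probes of Hoxc10 (-0.48 to -0.25) and Hoxd9 (-0.80 to -0.45) were not under -0.5 in every pool. In 18 members every pool lay within 0.5 of 0, against 53.1% of all genes. The other 8 included Hoxa5, Hoxb2, Hoxb3, Hoxb5, Hoxb6, Hoxb7 and Hoxb13. These values describe a difference from a mixture of cell lines, which may itself hold much Hox RNA, and not a change in the tumours. The median of the members' medians was -0.15, against 0.01 over all genes.

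The low members sat mostly in the middle and the tail-ward part of their clusters. Of the 15 members with paralogue numbers 9 to 13, 7 were under -0.5 in every pool, and of the 15 with numbers 4 to 8, 5 were. None of the 8 with numbers 1 to 3 was, though Hoxb3 missed it only in YB pool 1, at -0.44. The dimmer probes of Hoxa3 and Hoxd3 also lay below the reference, at medians of -0.66 and -0.56. By cluster, the count was 4 of 11 in HoxA, 0 of 10 in HoxB, 5 of 8 in HoxC and 3 of 9 in HoxD. The lowest was Hoxa11, a gene of limb and uterus patterning, at a median of -2.55 and a range of -2.80 to -2.02 over the 12 pools. Hoxc9 followed at -2.39, between -2.80 and -2.08, and Hoxc13, a gene of hair and nail, at -2.04, between -2.39 and -1.23. Hoxa9 lay between -2.18 and -1.35, and Hoxa10, which patterns the uterus, between -2.31 and -1.42. The HoxB count of 0 rests on a single pool: without YB pool 1, Hoxb3 lay between -1.83 and -1.11 and Hoxb7 between -1.50 and -0.82.

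**Figure D1:**
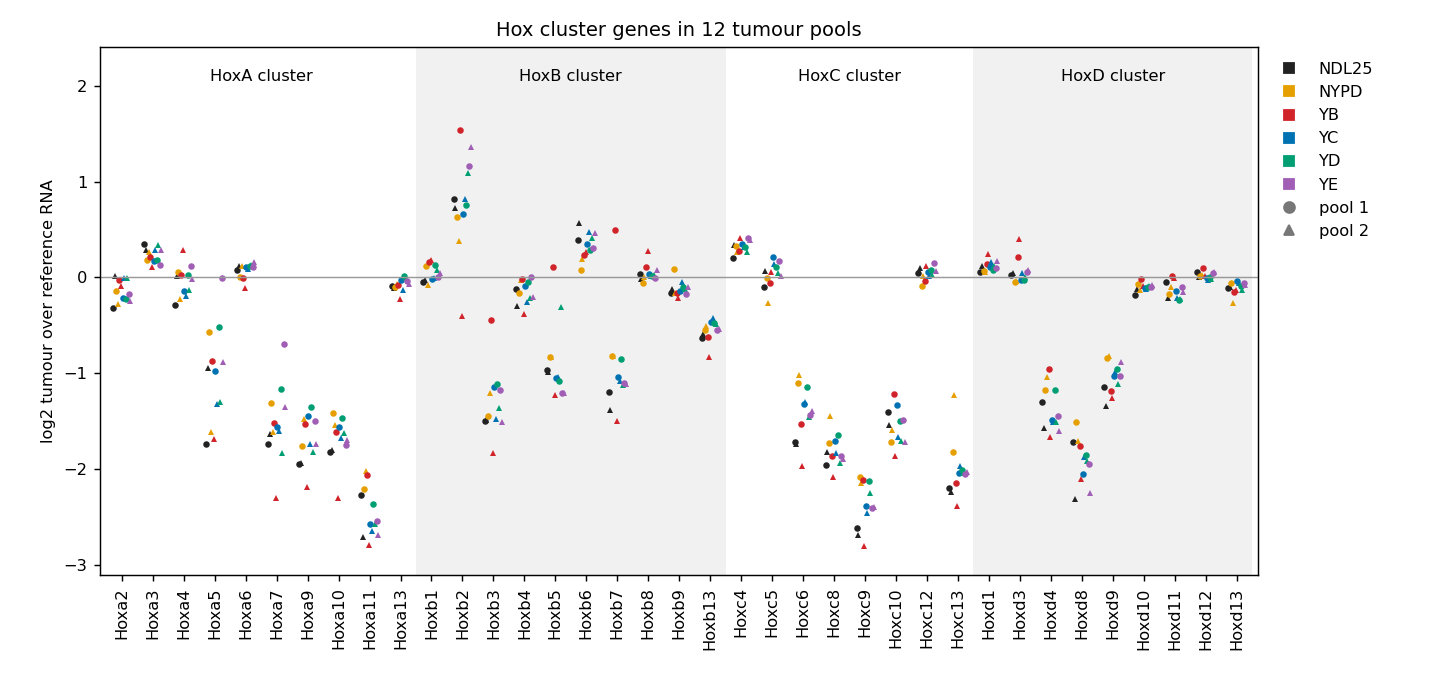
Log2 ratio of tumour over reference RNA (y axis) of the Hox genes described here (x axis, by cluster and paralogue number) in the 12 pools, with strain by colour, pool 1 as circles and pool 2 as triangles. A set of genes lies near 0 and another far below it in every strain; the red circle of YB pool 1 stands above the rest in Hoxb7, Hoxb5 and Hoxb3.

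A few members were above the reference. Hoxb2, a hindbrain patterning gene, was above 0 in 11 of 12 pools, from 0.38 in NYPD pool 2 to 1.53 in YB pool 1, while YB pool 2 had -0.40. The pools of YE were at 1.16 and 1.36 and those of NDL25 at 0.82 and 0.73. YB thus held both the highest and the lowest pool. Hoxa3, Hoxb6, Hoxc4 and Hoxd1 were above 0 in all pools, but by little: the ranges were 0.11 to 0.35, 0.08 to 0.57, 0.20 to 0.41 and 0.06 to 0.25. For Hoxa3 and Hoxb6 the dimmer probe of the same gene was on the other side of 0 in every pool, with medians of -0.66 and -0.54. The side of the reference is therefore not settled for these 2 genes.

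Among strains, few Hox differences passed a test. By limma's F test over the 6 strains with Benjamini-Hochberg adjustment over all genes, 0 of 38 members differed among strains at an adjusted p of 0.05, against 3.11% of all genes tested; 6 members were under 0.05 before adjustment, against 21.18% of all genes. The lowest adjusted p were 0.108 for Hoxd3, 0.110 for Hoxc6 and 0.110 for Hoxd9. The members did not vary less than other genes: their median range over the 12 pools was 0.51, against 0.48 over all genes. The absence of calls depended on single pools: some members passed when YB pool 1, YB pool 2 or NYPD pool 1 was left out. Each such fit leaves a strain with 1 pool, and the number of calls over all genes shifted too. These gains are therefore not read as a result about the Hox genes.

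YB against NYPD was the comparison with most Hox calls. It sets tumours with the Grb2-binding site against tumours with none of the sites. On their brightest probes 3 of 38 members passed, against 5.03% of all genes tested: Hoxd3 was higher and Hoxc6 and Hoxd9 were lower in YB. This count lies near the share of all genes, so it is not read as a result about the Hox genes. NYPD was alone in its session, so session and strain cannot be told apart in these calls. None of the 3 calls held on every reading: the Hoxd3 and Hoxd9 calls were absent on the dimmer probe, and those of Hoxc6 and Hoxd9 in the authors' deposited table. Against the mean of the other 5 strains, YB tumours had 1 member higher and 0 lower, against 6.81% of all genes; before adjustment 4 members were higher and 4 lower. The 1 member was Hoxd3.

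Hoxc6, a mammary gland patterning gene, was read at -1.72 and -1.73 in the NDL25 pools, -1.10 and -1.01 in NYPD, -1.53 and -1.96 in YB, -1.32 and -1.30 in YC, -1.14 and -1.46 in YD, and -1.43 and -1.39 in YE. The NYPD pools were the 2 highest of 12, and no YB pool overlapped them. The level in YB was 1.61-fold lower than in NYPD (log2 difference -0.69 ± 0.15 SE, n = 2 pools per strain, adjusted p = 0.0389). Hoxc6 has only this probe. In the authors' deposited table, refitted in the same way, the difference was -0.11 with an adjusted p of 0.851.

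Hoxd9, which acts with Hoxa9 and Hoxb9 in the pregnant gland, had values of -1.15 and -1.34 in NDL25, -0.84 and -0.82 in NYPD, -1.19 and -1.26 in YB, -1.03 and -0.99 in YC, -0.95 and -1.11 in YD, and -1.03 and -0.88 in YE. NYPD again held the 2 highest pools, and YB and NDL25 the 4 lowest. The YB level was 1.32-fold lower than NYPD's (log2 difference -0.40 ± 0.09 SE, adjusted p = 0.0447). The dimmer Hoxd9 probe gave -0.18 with an adjusted p of 0.230, so the call rests on the brighter probe.

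Hoxd3, a gene of the neck and hindbrain level, had its 2 highest pools in YB, at 0.21 and 0.40. All other pools lay between -0.05 and 0.08 and did not overlap them. YB was 1.28-fold above NYPD (log2 difference 0.35 ± 0.07 SE, adjusted p = 0.0305) and 1.23-fold above the mean of the other 5 strains (0.30 ± 0.05 SE, adjusted p = 0.0175). The dimmer probe of Hoxd3 did the opposite: it was at -0.65 and -0.66 in YB and between -0.70 and -0.26 elsewhere, which gave -0.31 against NYPD with an adjusted p of 0.126 and -0.14 against the other 5 strains with 0.353. A rise of the gene as a whole is therefore not shown. All 3 calls against NYPD are also close to the threshold. Each was lost when a pool of NDL25, YC or YE, strains outside the comparison, was left out, with adjusted p of 0.0504 to 0.0816 in limma. Either NYPD pool or YB pool 2 left out ended all 3 calls as well, a YD pool those of Hoxd3 and Hoxd9, and YB pool 1 that of Hoxd9. Without YB pool 2 Hoxd3 also lost its call against the other 5 strains, while other members passed there. Without YB pool 1 more members passed against NYPD. The number of calls over all genes shifted in both fits as well.

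The other named members did not pass. Hoxc13 was at -1.82 and -1.23 in NYPD and between -2.39 and -1.96 in all other pools, so NYPD held the 2 highest pools. Its difference between NYPD and NDL25 was 0.69 ± 0.17 SE (adjusted p = 0.108) and between YB and NYPD -0.74 ± 0.17 SE (adjusted p = 0.0526). Without NYPD pool 1, its F test had an adjusted p of 0.0282. Its tumour signal was among the weak ones, at a median of 1.5 times the negative control percentile.

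Hoxb6 on its brighter probe was lowest in the 2 NYPD pools, at 0.08 and 0.19. NDL25 had 0.39 and 0.57, YB 0.23 and 0.27, YC 0.35 and 0.48, YD 0.29 and 0.41, and YE 0.30 and 0.46. The adjusted p for NYPD against NDL25 was 0.122. Hoxb13, known from prostate and tail-end development, was at -0.63 and -0.83 in YB, at -0.46 and -0.42 in YC and between -0.63 and -0.48 in the other strains. Hoxd11 had 0.01 and -0.01 in YB and -0.24 to -0.04 in the other strains, and Hoxa6 had -0.00 and -0.11 in YB and 0.00 to 0.16 in the others. In Hoxd11 no other pool reached the YB pools, and in Hoxa6 none fell below both. The 2 dye orientations of Hoxd11 differed by more than this gap, at 0.36 and -0.33 in YB pool 1 and 0.20 and -0.29 in NDL25 pool 1. Their F tests had adjusted p of 0.204 for Hoxb13, 0.332 for Hoxd11 and 0.334 for Hoxa6.

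**Figure D2:**
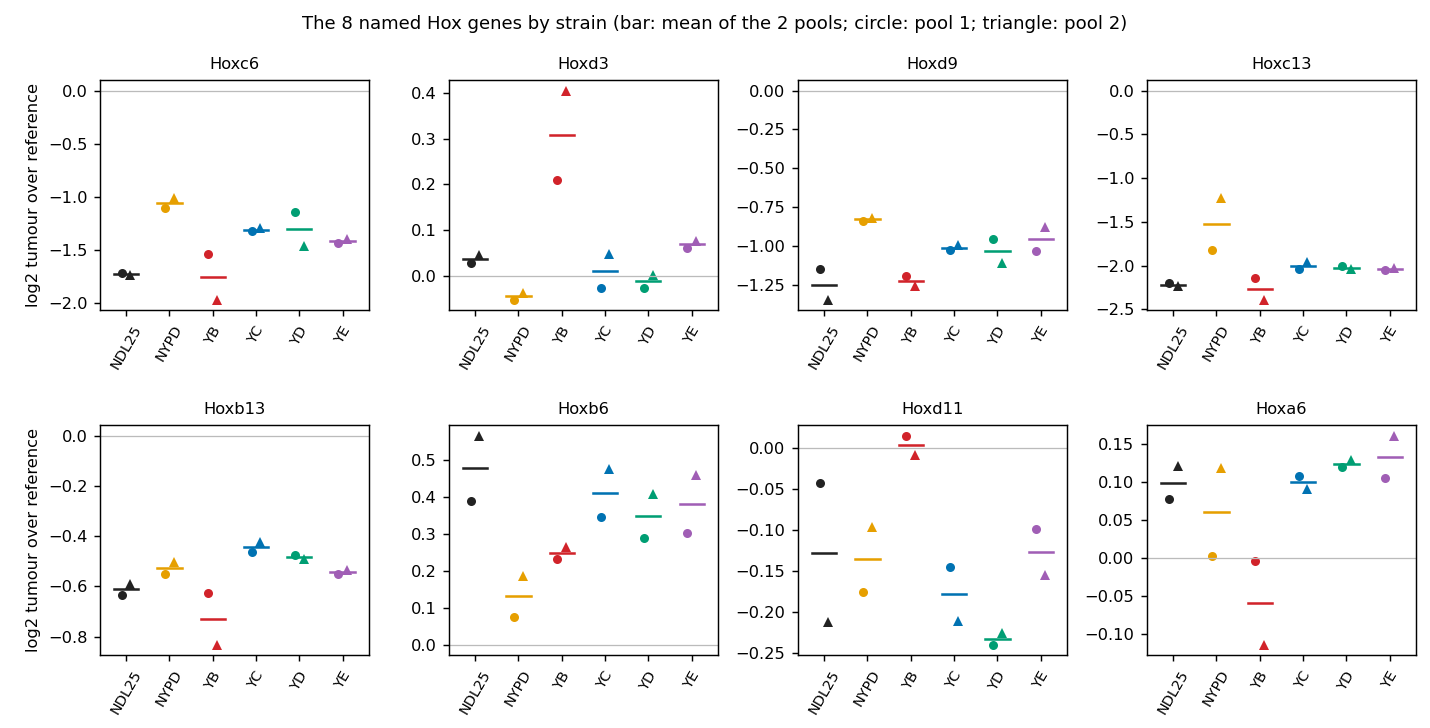
Log2 tumour over reference (y axis, a scale of its own in each panel) by strain (x axis) for Hoxc6, Hoxd3, Hoxd9, Hoxc13, Hoxb13, Hoxb6, Hoxd11 and Hoxa6, with pool 1 as circles, pool 2 as triangles and the mean of 2 pools as a bar. NYPD is highest in Hoxc6, Hoxd9 and Hoxc13, and YB is highest in Hoxd3 and Hoxd11.

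**Figure D3:**
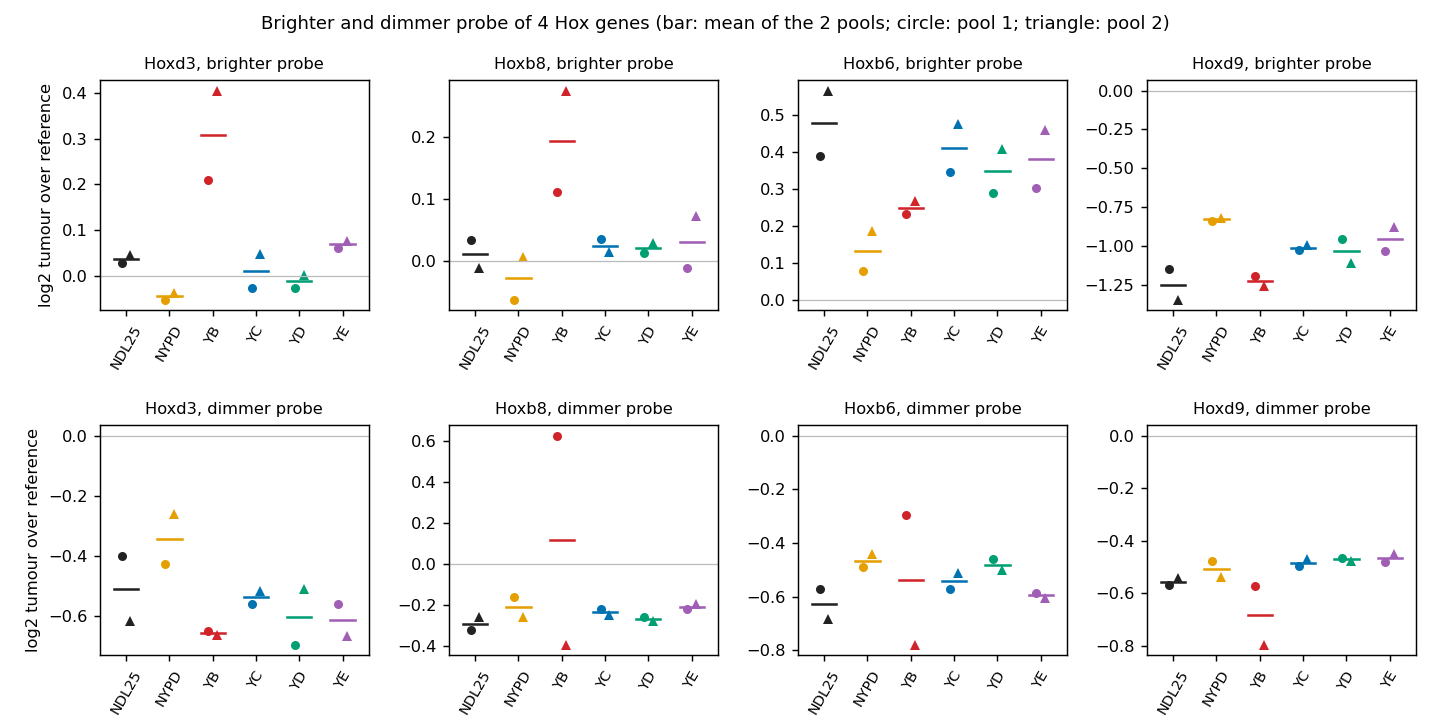
Log2 tumour over reference (y axis, a scale of its own in each panel) by strain (x axis) on the brighter (upper row) and dimmer (lower row) probe of Hoxd3, Hoxb8, Hoxb6 and Hoxd9, with pool 1 as circles, pool 2 as triangles and bars at the mean of 2 pools. YB is highest on the brighter Hoxd3 probe at 0.21 and 0.40 and low on the dimmer one at -0.65 and -0.66; YB pool 1 is highest on the dimmer Hoxb8 probe at 0.63.

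NYPD against NDL25 had no Hox call, and more members lay higher than lower in NYPD. In limma 0 of 38 members passed, against 0.993% of all genes, and 5 were under an unadjusted p of 0.05, 4 of them higher in NYPD: Hoxc6, Hoxc9, Hoxc13 and Hoxd9. The lowest adjusted p were 0.0734 for Hoxd9 (0.42 ± 0.09 SE) and 0.0799 for Hoxc6 (0.67 ± 0.15 SE). Some members passed without YB pool 1 or YB pool 2, which lie outside this comparison, or without NYPD pool 1. Calls over all genes rose in these fits too. Both NYPD pools lay above both NDL25 pools in 15 of 38 members, against 20.4% of all genes, and below both in 6, against 26.6%. The 15 were Hoxa7, Hoxa9, Hoxa10, Hoxa11, Hoxb3, Hoxb5, Hoxb7, Hoxb13, Hoxc6, Hoxc8, Hoxc9, Hoxc13, Hoxd4, Hoxd8 and Hoxd9; this pattern was looked for after the values were seen. Markers of fibroblasts lay higher in NYPD too: the mean log2 ratio of 8 genes was 0.08 and -0.52 in the NYPD pools and -0.95 and -1.08 in NDL25. None of the 8 was called in this comparison. Their mean was -1.38 and -1.01 in YC and -1.16 and -1.74 in YE. The strain means of Hoxc6, Hoxc9, Hoxc13 and Hoxd9 were higher in YC and YE than in NDL25. Basal and skin markers were at 0.38 and 1.08 against -0.13 and -0.04, and 2 of these 7 genes were called higher in NYPD. Of 19 luminal and milk genes 4 were called higher in NYPD and 0 lower, where 0.993% of all genes were called. Their part in the Hox values was not tested. In these pooled bulk tumours fewer cells of a type and less RNA per cell cannot be told apart.

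The other comparisons with the parental strain gave no Hox call in limma. For YB against NDL25 it was 0 of 38, against 3.86% of all genes, with 5 members under an unadjusted p of 0.05; Hoxd3 came closest (0.27 ± 0.07 SE, adjusted p = 0.0819). Leaving out YB pool 1 or YB pool 2 brought differing members past the threshold, and the number of calls over all genes shifted with it. For YC, YD and YE against NDL25 the counts were 0, against 0.00678%, 0.00678% and 0% of all genes, with 3, 3 and 1 members under an unadjusted p of 0.05. Among them Hoxc6 was 0.42 ± 0.15 SE higher in YC and 0.42 ± 0.15 SE higher in YD than in NDL25, with 95% intervals of 0.08 to 0.75 and 0.09 to 0.76 before adjustment. These contrasts share the NDL25 pools.

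Among the other single-site strains set against NYPD, limma called 0 members in YC, YD and YE, against 0.017%, 0.0102% and 1.83% of all genes, and 3, 3 and 4 members were under an unadjusted p of 0.05. Hoxc13 was among these in each, lower by 0.48, 0.50 and 0.51, with SE of 0.17. Hoxb6 was among them too, higher by 0.28, 0.22 and 0.25, with SE of 0.09. Without NYPD pool 1, Hoxc13 passed in each of the 3, and without either YB pool Hoxb2 passed in YE. Calls over all genes rose in these fits too. The comparisons of YC, YD and YE share the NYPD pools, so their likeness is not independent. For the median member the SE of such a difference was 0.13, against 0.11 over all genes.

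Counting ranks in place of testing gave a similar sparse picture. Both YB pools were the 2 highest of 12 in 4 of 38 members (Hoxb1, Hoxb8, Hoxd3 and Hoxd11), against 9.4% of all genes, and the 2 lowest in 1 (Hoxa6), against 4.36%. On the dimmer Hoxb8 probe YB pool 1 was the highest, at 0.63, but YB pool 2 was the lowest, at -0.40. Both NYPD pools were the 2 highest in 4 (Hoxc6, Hoxc13, Hoxd8 and Hoxd9), against 4.29%, and the 2 lowest in 2 (Hoxb6 and Hoxd3), against 4.77%. YC held the 2 highest pools in Hoxb13 and Hoxd13, against 0.932% of all genes. YD held the 2 highest in Hoxa13, against 1.16%, and the 2 lowest in Hoxd11, against 1.11%. No member had its 2 extreme pools in NDL25 or YE. The shares for YB lie near those of all genes.

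The widest ranges over the 12 pools were those of Hoxb7 and Hoxb2, and in both genes YB held the highest and the lowest pool. Hoxb7, a gene of the thoracic level that is raised in some breast cancers, was at 0.49 in YB pool 1 and at -1.50 in YB pool 2, and the other strains lay between -1.39 and -0.82. Hoxb5 was at 0.11 and -1.22 in the YB pools, and elsewhere between -1.21 and -0.83 except for -0.31 in YD pool 2. Hoxb3 was at -0.44 and -1.83, with all other pools between -1.51 and -1.11. Pool 1 of YB therefore stood above every other pool in these 3 genes, by 1.31, 0.42 and 0.66. Pool 2 lay below every other, by 0.115 in Hoxb7, 0.328 in Hoxb3 and only 0.013 in Hoxb5. Hoxb2 showed the same order at 1.53 and -0.40, although on its dimmer probe YE pool 2 at 1.72 was above YB pool 1 at 1.61.

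The difference in Hoxb7, Hoxb5 and Hoxb3 was present in both dye orientations. The 2 arrays of YB pool 1 gave 0.39 and 0.60 for Hoxb7 against -1.59 to -0.66 on the other 22 arrays, 0.07 and 0.15 for Hoxb5 against -1.29 to -0.27, and -0.40 and -0.49 for Hoxb3 against -1.90 to -1.01. No array of another pool reached those of YB pool 1. On the brightest probes 0.644% of all genes stood more than 0.5 above each of the other 11 pools in YB pool 1. Of the 38 members 2 did, Hoxb7 and Hoxb3. Both YB pools lay in the same session of image extraction. This was singled out after the values were seen and no test was run on it.

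Along the chromosome the high values of YB pool 1 were not continuous on the brightest probes. In the order of annotated starts in GRCm38.p6, Hoxb13 and Hoxb9 at the tail-ward end lay within the range of the other pools, at -0.63 and -0.16. The brighter Hoxb8 probe was at 0.11 in pool 1, but its dimmer probe read 0.63 there and -0.40 to -0.16 in the other 11 pools. Hoxb6 repeated this on a smaller scale, with 0.23 in pool 1 on the brighter probe, inside the range of the others, and -0.29 on the dimmer one, against -0.78 to -0.44. Hoxb4 at -0.02 was close to the highest other pool at 0.00, and Hoxb1 at 0.16 was below YB pool 2 at 0.18. The 2 arrays of YB pool 1 differed on Hoxb4, at 0.25 and -0.29. With the dimmer probes in view, whether the high values run on from Hoxb8 to Hoxb2 is not settled. Of the 5 measured genes on each side of the cluster, YB pool 1 was highest in Abi3 and Gngt2, at 0.45 and 0.58 against at most 0.37 and 0.30, and in none of the other 8.

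**Figure D4:**
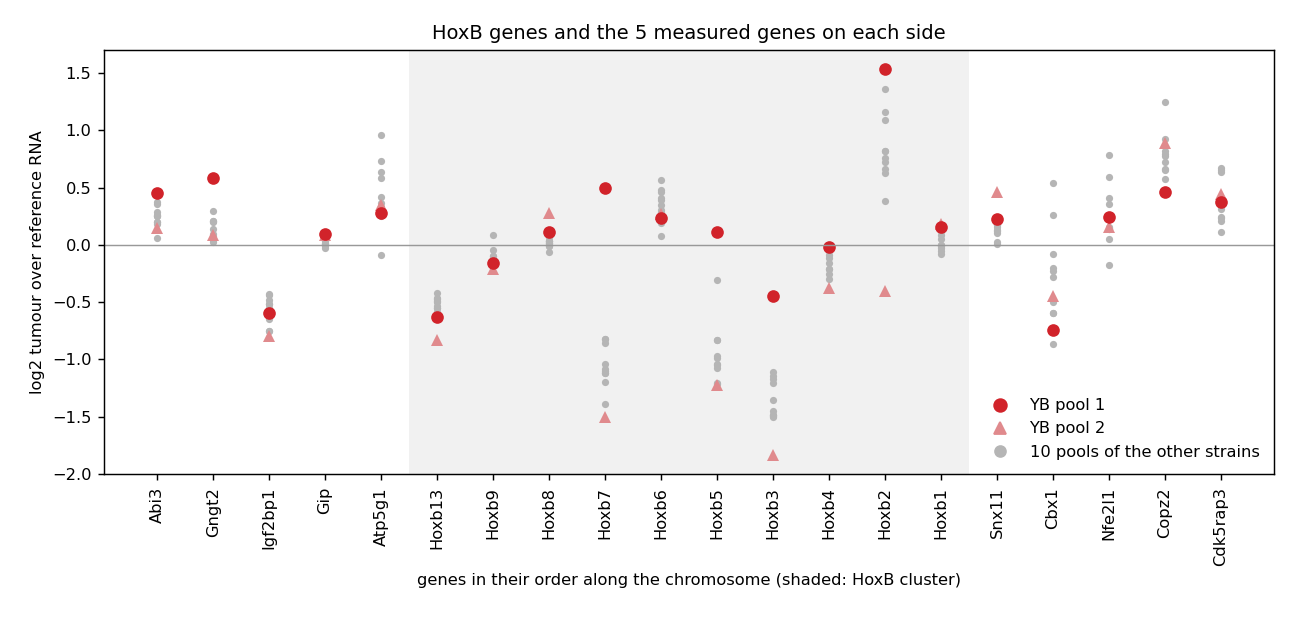
Log2 tumour over reference (y axis) of the HoxB genes (shaded) and the 5 measured genes on each side, in chromosome order (x axis), with YB pool 1 as red circles, YB pool 2 as pale triangles and the other 10 pools in grey. YB pool 1 is highest in Hoxb7, Hoxb5, Hoxb3 and Hoxb2, while YB pool 2 is the lowest of 12 there.

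In the other clusters YB pool 1 stood little or not at all above the rest. Its values in HoxA were inside the range of the other pools for all 11 genes, and in HoxC it was highest only in Hoxc10, by 0.12. In HoxD it was highest in Hoxd4, Hoxd10, Hoxd11 and Hoxd12, by 0.02 to 0.08. Fibroblast markers moved with YB pool 1, and blood cell markers did so in part. The mean log2 ratio of 8 blood cell genes was 0.52 in it, 0.21 in YB pool 2 and -0.14 to 0.32 elsewhere, and 3 of the 8 had their highest pool there (Ptprc, Csf1r and Itgam). Only 4 of the 8 were higher in YB pool 1 than in YB pool 2, however, and the list's median was lower in pool 1, at 0.30 against 0.36. Over 8 fibroblast genes, all 8 of them higher in pool 1 than in pool 2, the mean was 0.21, against -0.70 in pool 2 and -1.74 to 0.08 elsewhere, and 4 had their highest pool there (Col1a1, Lum, Pdgfrb and Fap). Their part in the HoxB values was not tested.

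YB pool 2 was low in the HoxA, HoxB and HoxC clusters. Its median deviation from each gene's median over the 12 pools was -0.22 in HoxA, -0.22 in HoxB and -0.27 in HoxC. In these clusters it was the lowest pool in 7 of 11, 7 of 10 and 5 of 8 genes. In HoxD it was the lowest in 1 of 9 and the highest in 2. Over all clusters it was the lowest of 12 pools in 20 of 38 members, against 14.5% of all genes. Its median deviation from the 12-pool median was -0.20 over the members and -0.01 over all genes. Of these 20, 15 were among the 20 members that left the band within 0.5 of 0. Hoxa10 was at -2.31 there, below the next pool by 0.49, Hoxa7 at -2.30, below it by 0.46, and Hoxb2 by 0.78. In the other YB pool Hoxa10 was at -1.61 and Hoxa7 at -1.52, inside the range of the remaining strains. Erbb2 on its brightest probe was at 1.85 in YB pool 1 and 4.19 in pool 2, and at 1.64 and 3.92 in NDL25, while the pools of the other strains lay between 3.42 and 4.05; the 2 dimmer Erbb2 probes did not show this gap, and which of them reads the transgene is not known. Erbb2's part in the Hox values was not tested either.

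A disagreement between pools was also seen outside YB. Hoxa5, a gene of lung and mammary epithelium, ranged from -1.74 in NDL25 pool 1 to -0.00 in YE pool 1, with -0.88 in YE pool 2 and -0.56 and -1.61 in the NYPD pools. The SD between a strain's 2 pools was 0.24 to 0.74, and the F test in limma gave an adjusted p of 0.737. Hoxa7, the neighbour of Hoxa6 in the same cluster, had its highest pool in YE pool 1 too, at -0.70, with -1.35 in YE pool 2.

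The remaining members showed little. Hoxa2, Hoxa4 and Hoxa13 lay between -0.32 and 0.28 in all pools, and Hoxb9 between -0.21 and 0.09. Hoxc4 and Hoxc5 lay at 0.20 to 0.41 and at -0.26 to 0.21, and Hoxc12 at -0.09 to 0.15. Hoxd1, Hoxd10, Hoxd12 and Hoxd13 had ranges over the 12 pools of 0.19, 0.17, 0.12 and 0.23. For Hoxc8 the pools lay between -2.08 and -1.45, for Hoxc10 between -1.86 and -1.21, for Hoxd4 between -1.66 and -0.96, and for Hoxd8 between -2.31 and -1.51. On the probes used, each of these 4 genes was in the low group in every strain. The dimmer Hoxc10 probe lay nearer the reference, between -0.48 and -0.25 in every pool.

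Among the DNA-binding partners of Hox proteins, 3 of 10 TALE cofactor genes passed the F test (Meis2, Meis1 and Pknox2), where 3.11% of all genes did. The same 3 were higher in YB against NDL25, against NYPD and against the other 5 strains, and none was lower. Over all genes 3.86%, 5.03% and 6.81% were called in these comparisons. Salivary gland markers were high in the same YB pools, at a mean over 16 genes of 2.14 in pool 1 and more in pool 2, against 0.51 to 0.88 in the other strains; their part in the cofactor values was not tested. Meis2, named Mrg1 on the array, encodes a partner of Pbx and Hox proteins and was at 0.40 and -0.34 in YB and between -3.93 and -2.98 in the other 10 pools, so the strains did not overlap. Its difference from NDL25 was 3.86 ± 0.23 SE (adjusted p = 0.000258) and from NYPD 3.19 ± 0.23 SE. Its other 2 probes showed the same order, with YB at 0.35 and -0.34 against -3.09 to -2.48, and with YB at 0.88 and 0.17 above all other pools on the dimmest.

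Meis1 was at -0.36 and -0.50 in YB and at -0.09 and -0.36 in YD, and between -1.27 and -0.95 in the other strains. It was 0.79 ± 0.12 SE above NDL25 in YB (adjusted p = 0.0157). On the dimmer Meis1 probe YB pool 1 at -0.31 was inside the range of the other strains. Pknox2, which encodes Prep2, was at 0.52 and 0.66 in YB and between -0.24 and -0.02 elsewhere, but its dimmer probes stayed between -0.17 and 0.16 in every pool.

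**Figure D5:**
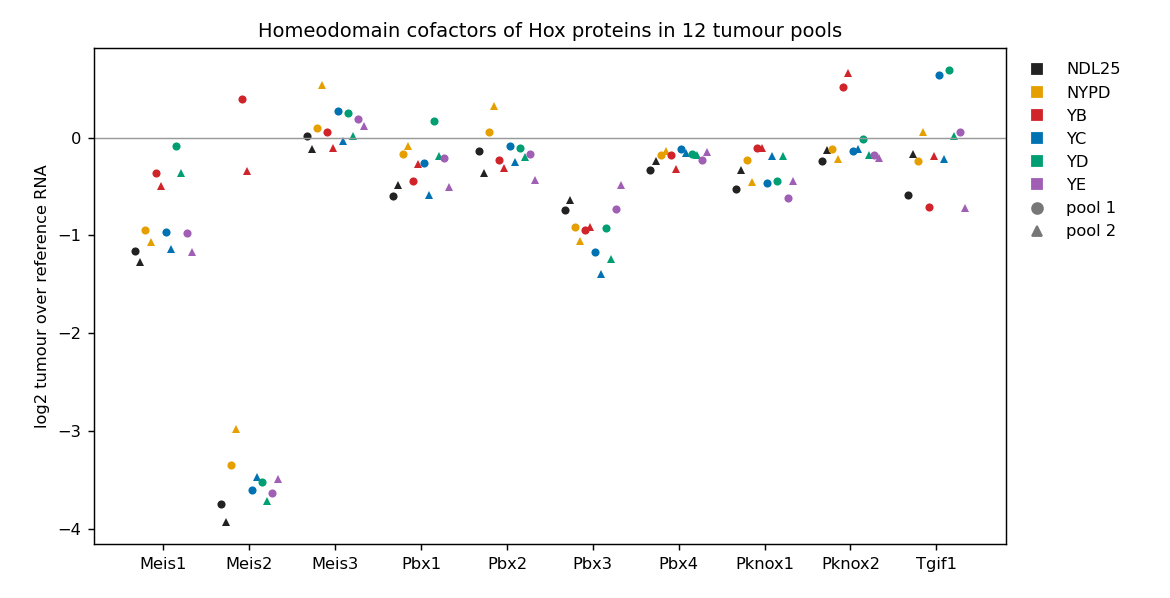
Log2 tumour over reference (y axis) of the 10 TALE cofactor genes (x axis) in the 12 pools, with strain by colour, pool 1 as circles and pool 2 as triangles. The YB pools stand at 0.40 and -0.34 in Meis2, far above the other 10 pools.

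Other genes of the Hox loci and the related ParaHox and Cdx genes stayed near the reference. Of 15 listed, 9 were measured and 0 passed limma's F test, against 3.11% of all genes. Against NYPD, Mnx1, a motor neuron and pancreas homeobox gene, rose in YB (0.38 ± 0.08 SE, adjusted p = 0.0404), with 0.26 and 0.32 in YB and -0.15 to 0.15 elsewhere. It was the only 1 of the 9 called there, against 5.03% of all genes. Against the other 5 strains Mnx1 rose and Pdx1, a pancreas gene, fell by 0.18 (adjusted p = 0.0474). These were 2 of the 9, against 6.81% of all genes. Evx1 and Evx2, which lie beside the HoxA and HoxD clusters, were between -0.21 and 0.26 in all pools.

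Chromatin regulators that keep Hox clusters on or off showed 0 of 22 genes past the F test in limma, against 3.11% of all genes. Cbx7, a Polycomb subunit, fell in NYPD against NDL25 (-0.78 ± 0.13 SE, adjusted p = 0.0473), from 0.33 and -0.02 to -0.63 and -0.63. Kdm6a, a demethylase that opposes Polycomb, was at 0.71 and 0.47 in NYPD and at -0.87 and -1.12 in YE, and fell in YE against NYPD (-1.58 ± 0.26 SE, adjusted p = 0.0345). In each of these 2 comparisons 1 of the 22 genes passed, against 0.993% and 1.83% of all genes. None of the 22 passed in YB against NDL25, NYPD or the other 5 strains, against 3.86%, 5.03% and 6.81% of all genes. Ezh2, Eed and Suz12, the core of Polycomb complex 2, were below 0 in every pool.

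Retinoic acid, which switches Hox genes on in the embryo, is made by Aldh1a enzymes. Of 16 genes of its pathway 0 passed the F test in limma, against 3.11% of all genes. In YB against the other 5 strains 3 rose, where 6.81% of all genes were called in either direction: Aldh1a1 (0.32 ± 0.06 SE, adjusted p = 0.0225), Aldh1a2 (0.77 ± 0.17 SE, adjusted p = 0.0391) and Rarg, a receptor (0.40 ± 0.08 SE, adjusted p = 0.0259). Aldh1a2 was at 1.14 in YB pool 1 and 0.31 in pool 2, with all other pools between -0.21 and 0.12. Against NDL25 only Aldh1a1 rose (0.47 ± 0.08 SE, adjusted p = 0.0219), and against NYPD none did. Over all genes 3.86% and 5.03% were called in these 2 comparisons.

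Genes that pattern oral and pharyngeal tissue were tested beside the Hox genes; as background, the mesenchyme of the jaws forms without Hox expression, while the more posterior pharyngeal arches express Hox genes; the list was drawn up with the oral genes of YB tumours known, so its direction is no independent evidence. Of 21 genes 4 passed the F test, against 3.11% of all genes, among them Pax9, Pitx1 and Eya1. Pax9, needed for teeth and palate, was at 3.94 and 3.59 in YB and between -0.27 and -0.00 in the other 10 pools. Eya1 was 1.66 ± 0.23 SE lower in YB than in NDL25.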

How the data were processed

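RNA was amplified in 1 round with T7 polymerase, per the labels' protocols. The deposited scanner files hold mean spot and local background intensities and flags from Agilent Feature Extraction, per the file headers. The deposited table holds the authors' log2 ratio for each dye-swapped pair; R 2.3.0, limma and RMA appear in the submitters' processing notes, and its log base, centring and direction are unstated (correlation with the ratios computed here 0.983 to 0.988, slopes 1.01 to 1.35, medians -0.00255 to 0.0143, so log2 is assumed).

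Here, in limma 3.58.1 (R 4.3.3), intensities were corrected by normexp (offset 50) and loess within each array, ratios were turned to tumour over reference, and each dye-swapped pair was averaged to 1 value per pool. Control and outlier spots were left out, spots of a probe averaged, and each gene name read from its brightest probe. Gene names well above background on at least 4 arrays were kept (29498 of 29742). One limma fit over the 6 strains with 2 pools each (residual df 6, prior df 1.76) gave the F test and 10 contrasts, adjusted by Benjamini-Hochberg over all genes at 0.05. Scripts were tested on simulated data.

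The number of arrays limits the precision. The labels state no pairing of samples by pool number, and none was assumed. Over 15 pairs of strains the pool differences correlated from -0.17 to 0.713, over 0.1 in 7, so a shared pool difference is not excluded. Members and gene lists were chosen with earlier results of these data known. Members past a test, then the next by F test up to 8, were named with every pool; of the other lists, counts and up to 4 genes by F test p. Other genes singled out (the HoxB genes of YB pool 1 and its neighbours, Evx1, Evx2, Ezh2, Eed and Suz12 among them) were chosen after their values were seen. Promoters are RefSeq's (GRCm38.p6). Results for some genes counted here are not reported by name or plotted.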

Additional observations from a re-analysis of the deposited data

How the results depend on the processing

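The counts of members far below or near the reference, and of members with both pools of a strain at an extreme, stayed within 1.5 times under the 8 alternatives run on each. For YB against NYPD (3 members called) limma called 0 with median centring in place of loess, 5 without background correction and 1 from the authors' deposited ratios. It called 1 with the mean over a gene's probes, 1 with the dimmer probe (added after seeing the data) and 0 with the 2 strains alone. More were called when YB pool 1 and NDL25 pool 1 were both left out. For YB against the other 5 strains (1 called) the counts were 2 without background correction, 0 with the mean over probes and 0 with the dimmer probe. There too more were called without those 2 pools. Calls over all genes shifted between these settings as well. Hoxd3 reversed on its dimmer probe, to -0.31 against NYPD and -0.14 against the other 5 strains. The cause was not tested.

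Leaving out 1 pool at a time gave 0 to 5 members in the F test, 0 to 2 for NYPD against NDL25, 0 to 3 for YB against NDL25, 0 to 8 for YB against NYPD, 0 to 1 each for YC, YD and YE against NYPD, and 1 to 7 for YB against the other 5 strains. The replicate block gave 1 member for NYPD against NDL25 (Hoxb6). That block treats equal pool numbers as pairs, which the labels do not state. A lone pool left in a strain is assumed to vary like the other strains. Calls over all genes shifted in the fits with 1 pool left out, so these ranges are not read as results about Hox genes. The session block could not be fitted for the F test or for contrasts that involve NYPD or the mean of 5 strains. The slide block was not run, since each of the 24 arrays has its own slide. Dim signal limits the ratios of 6 members, which lay under 2 times the negative control percentile.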
